A study of Mus musculus with 8 samples.

Results

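*Runx2*, *Sp7*, *Dlx3*, *Dlx5*, *Dlx6*, *Msx1*, *Msx2*, *Atf4* and *Mef2c* encode transcription factors known for their roles in bone-forming cells. The 9 genes were chosen by name for that role, and each was looked up by its symbol among the 15880 genes listed in the table. A measurement was found for 8 of them, and *Msx2* was not analysed here. *Runx2* is listed under 2 Ensembl identifiers, of which the one with the higher mean was used. The data are RNA-seq profiles of stromal cells of the neonatal bone marrow, sorted by flow cytometry from crushed, collagenase-digested bones of heterozygous *Nes-Gfp* mice on a C57BL/6 background on postnatal day 1. All sorted cells were negative for CD45, CD31 and Ter119, which mark blood, endothelial and erythroid cells. In these mice the regulatory elements of nestin drive GFP, so GFP reports the transgene and not the nestin protein itself. By GFP and surface Pdgfrα the cells were sorted into 4 populations of 2 libraries each, called double-positive (GFP+ Pdgfrα+), Pdgfrα-only (GFP- Pdgfrα+), GFP-only (GFP+ Pdgfrα-) and double-negative (GFP- Pdgfrα-) here. A library came from 3 pooled pups and 15000 to 80000 cells. No treatment is stated, and the populations are defined by their sort gates.

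Runx2 is the runt-domain factor without which mice form no osteoblasts, and Sp7 (osterix) is a zinc-finger factor required after it in the same lineage. Dlx3, Dlx5 and Dlx6 are distal-less homeodomain factors that bind regulatory regions of *Runx2*, *Sp7* and bone matrix genes, while the homeodomain factors Msx1 and Msx2 act mostly as repressors and keep skeletal progenitors from differentiating. Atf4 is a bZIP factor of the stress response that supports amino acid supply and late osteoblast function and is controlled largely at translation. Mef2c is a MADS-box factor known in muscle, cartilage and blood vessels, and in osteocytes it drives the *Sost* enhancer.

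Each value is the number of reads of a gene plus 0.5, per 1e6 of the effective size of the library, and is called the normalized value here. Reads on genes summed to between 3221217 and 5302762 per library, with a median of 3604130. A gene with 3 reads has a normalized value between 0.825 and 1.04, depending on the library, and values at or below this floor are counted as not detectable. Counting intervals and the floor cover counting error only, since reads of amplified cDNA are not independent molecules. Differences are on the scale log2(value + 1) and were tested with limma in a fit over all 8 libraries, with p-values adjusted over 15880 genes. Genes with an adjusted p of 0.05 or less are termed called. For 2 libraries against 2, the smallest p of an exact two-sided permutation test is 0.333, and the calls therefore draw on the variance that limma pools across genes.

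*Runx2*, *Sp7*, *Dlx3*, *Dlx5*, *Dlx6* and *Mef2c* had their highest values in both libraries of the double-positive cells. Of the 8 measured members, 5 were called higher in double-positive than in Pdgfrα-only cells, where 3.22% of all genes were called higher and 2.13% lower. The median log2 difference was 2.27 over the members and 0.0047 over all genes. Genes called in this comparison numbered 849, but 532 without a mean-variance trend, and fewer than 849 with a library left out. Against GFP-only cells, 6 members were called higher, against 13.1% of all genes called higher and 11.1% lower. There the median log2 difference was 2.43 over the members and -0.02 over all genes. *Atf4* and *Msx1* were called in neither comparison. In bulk RNA, fewer cells of a type and less RNA per cell cannot be told apart, here and for each difference that follows.

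The double-negative cells stood apart from the other populations at many genes. The double-positive cells had 6 members called higher and 1 lower than double-negative cells, where 32.9% of all genes were called higher and 26.4% lower. Between Pdgfrα-only and double-negative cells, 5 members were called higher and 1 lower, against 32.9% and 26.8% of all genes. Between GFP-only and double-negative cells 4 members were called higher, against 30.1% of all genes called higher and 23.6% lower. The members' median log2 differences over the double-negative cells were 3.89, 1.29 and 1.20 in these comparisons, beside 0.20, 0.17 and 0.15 over all genes. The comparison of Pdgfrα-only with GFP-only cells gave 2 members called higher and 1 lower, where 14.3% of all genes were called higher and 13.5% lower. Its median log2 difference was -0.08 over the members and -0.03 over all genes. With a library left out, fewer members and fewer genes were called in this comparison. The interaction, the GFP+ over GFP- difference among Pdgfrα+ cells minus that among Pdgfrα- cells, was called above 0 for 3 members, against 19.1% of all genes above 0 and 25.2% below. The number of members called for the interaction was 0 with a pseudocount of 0.1 and with voom, 5 after quantile normalization and 6 with median centring. With a library left out it lay between 1 and 4, and it was 1 without double-positive replicate 1, GFP-only replicate 1 or GFP-only replicate 2.

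The split of all genes over the double-negative cells depended on how libraries were scaled. In double-positive over double-negative cells, 55.5% of the called genes were higher, but 39.6% when each library was centred on its median and 44.2% after quantile normalization. The share was 55.1%, 40.6% and 45.5% for Pdgfrα-only over double-negative cells. For GFP-only over double-negative cells it was 56.1%, 38.9% and 46.7%, and for the interaction 43.1%, 59.7% and 50%. Median centring moved the median log2 difference of all genes to -0.28, -0.28 and -0.30 in the comparisons with double-negative cells and from -0.16 to 0.27 for the interaction. Quantile normalization moved these medians to -0.16, -0.15, -0.14 and 0.096. Under both scalings, *Runx2*, *Sp7*, *Dlx3*, *Dlx5* and *Mef2c* stayed above these medians in each comparison with double-negative cells. Reads of the mitochondrial ribosomal RNA gene *mt-Rnr2* made up 27.2% and 29.1% of these libraries and 9.52% to 17.6% of the others, and its part in the differences was not tested.

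**Figure D1:**
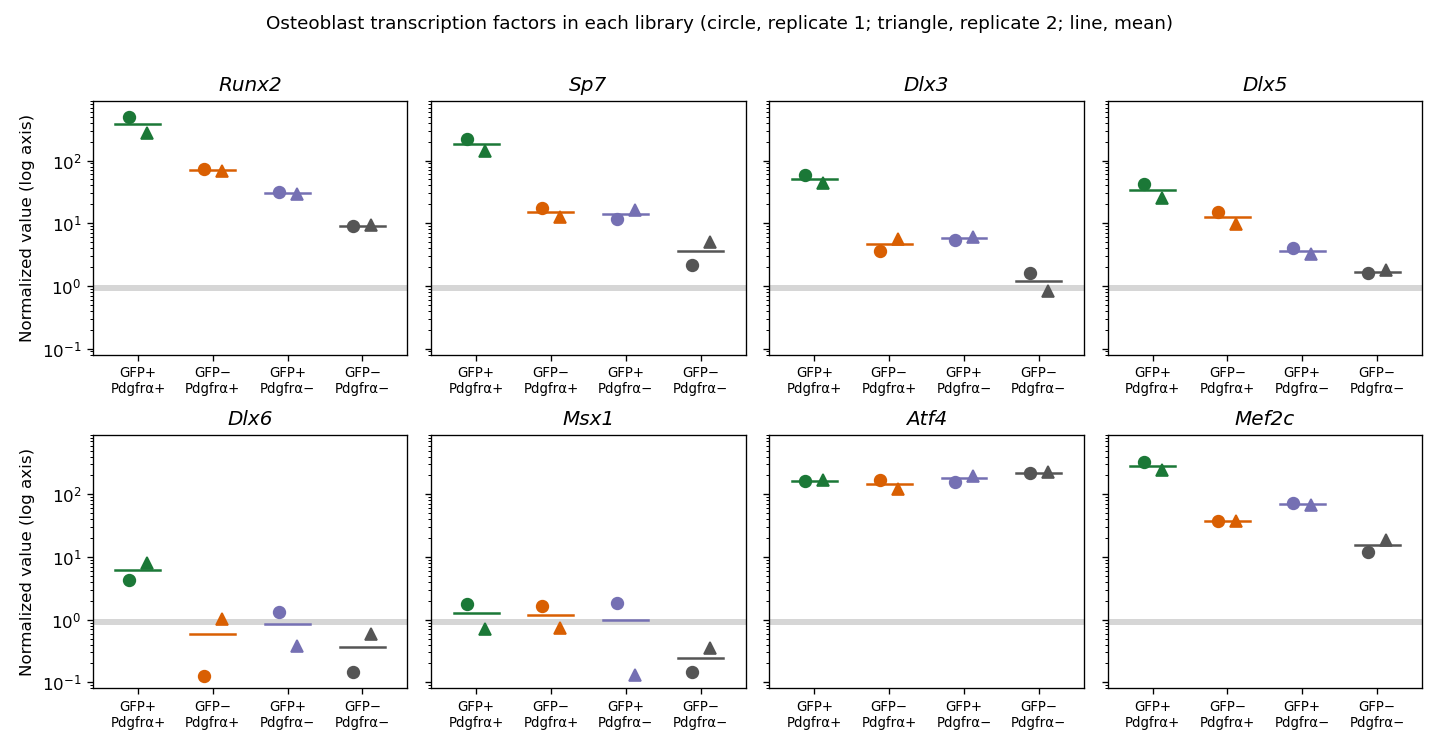
Normalized value (log axis, reads plus 0.5 per 1e6 of the effective library size) of the 8 measured genes in the 4 populations; circles are replicate 1, triangles replicate 2, horizontal lines the mean of 2 libraries, and the grey band spans the value of 3 reads, 0.825 to 1.04. *Runx2*, *Sp7*, *Dlx3*, *Dlx5*, *Dlx6* and *Mef2c* are highest in both GFP+ Pdgfrα+ libraries, *Atf4* is highest in the GFP- Pdgfrα- libraries, and *Msx1* lies near the band throughout.

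Osteoblast and osteocyte markers were most abundant in the double-positive cells. Their 16 normalized values summed to 116577 and 87680 in these libraries, to 38146 and 35442 in Pdgfrα-only cells, to 9466 and 8679 in GFP-only cells and to 1212 and 1704 in double-negative cells. *Col1a1*, which encodes a chain of type I collagen, was the most abundant marker in the list, and *Bglap*, *Bglap2* and *Sost* were at 0 reads in both double-negative libraries. The populations thus fell in the same order by summed osteoblast markers as by *Runx2*, with no overlap between them. Of the 16 markers, 14 were called higher in double-positive cells than in Pdgfrα-only cells and 14 than in GFP-only cells, with median log2 differences of 3.1 and 3.14. Of all genes, 3.22% and 13.1% were called higher there. Over double-negative cells 15 were called higher, beside 32.9% of all genes, with a median of 4.98. Between Pdgfrα-only and GFP-only cells, 5 markers were called higher and 5 lower, beside 14.3% and 13.5% of all genes, with a median of -0.24. Over double-negative cells the median was 1.31 in Pdgfrα-only cells and 2.09 in GFP-only cells. The order of the single-positive populations by median was thus opposite to that by sum.

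Markers of other cell types also moved with the populations. The 12 skeletal muscle markers, led by *Ttn*, summed to 1796 and 1717 in GFP-only cells, against 195 and 168 in double-positive cells, 74.1 and 79.0 in Pdgfrα-only cells and 71.2 and 50.7 in double-negative cells. Pericyte and smooth muscle markers (8, led by *Rgs5*) were likewise highest in GFP-only cells, at 2257 and 2931, against 570 and 488, 405 and 419, and 78.1 and 139 in the populations in the same order. Schwann lineage markers (9, led by *Ngfr*) summed to 487 and 444 in GFP-only cells and to 202 and 184, 79.3 and 90.1, and 26.9 and 43.5 in the others. The GFP-only population thus had the highest sums of these lists. Tendon markers (5, led by *Fmod*) were highest in Pdgfrα-only cells, at 1589 and 1677, against 182 and 156 in double-positive cells, 18.6 and 19.9 in GFP-only cells and 56.2 and 88.3 in double-negative cells. Erythroid markers (8, led by *Hbb-b1*) summed to 13762 and 21839 in double-negative cells, although the gate removed Ter119+ cells, and to 45.3 and 47.4, 57.0 and 39.5, and 165 and 84.6 in double-positive, Pdgfrα-only and GFP-only cells. None of the 8 erythroid markers was at 0 reads in both libraries of a population, whereas the muscle factor *Myf6* was at 0 in both GFP- populations and the Schwann lineage factor *Foxd3* in double-negative cells.

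Chondrocyte markers were lowest in the GFP-only cells, and blood cell markers were highest in the double-negative cells. Of the 10 chondrocyte markers 9 were measured, led by *Col2a1*, and their sums were 349 and 424 in double-positive cells, 699.5 and 2156 in Pdgfrα-only cells, 86.3 and 129.5 in GFP-only cells and 630 and 1064 in double-negative cells. Endothelial markers (9, led by *Vwf*) lay between 61.6 and 189 in every library, and the 4 measured osteoclast markers (led by *Nfatc1*) between 110 and 216. The 8 measured blood cell markers (led by *Lyz2*) summed to 68.1 and 59.2 in double-negative cells and to between 4.42 and 22.6 in the other libraries. Of them, 6 were called lower in double-positive, 6 in Pdgfrα-only and 3 in GFP-only than in double-negative cells, beside 26.4%, 26.8% and 23.6% of all genes. The marker counts were 6, 7 and 7 after quantile normalization and 6, 7 and 6 with median centring. The part of any of these cell types in the levels of the transcription factors was not tested.

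**Figure D2:**
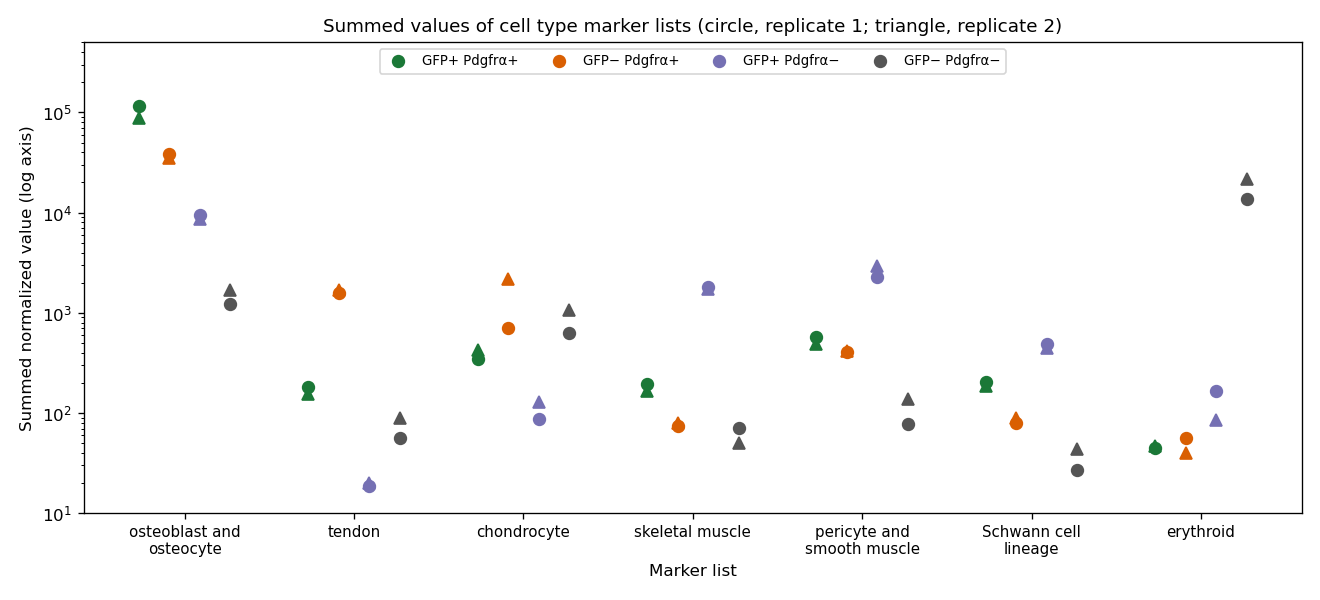
Summed normalized value (log axis) of 7 lists of cell type markers in the 4 populations; each point is a library, circles for replicate 1 and triangles for replicate 2. Osteoblast and osteocyte markers fall from 116577 and 87680 in GFP+ Pdgfrα+ cells to 1212 and 1704 in GFP- Pdgfrα- cells, and erythroid markers are highest in GFP- Pdgfrα- cells.

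*Runx2* (ENSMUSG00000039153; chromosome 17, 44632936 to 44951746 of NCBIM37, minus strand) had normalized values of 499 and 275 in the double-positive libraries and 73.5 and 69.1 in the Pdgfrα-only libraries. It was 31.0 and 29.2 in GFP-only cells and 9.05 and 9.31 in double-negative cells. Both double-positive libraries were high, though replicate 1 was 1.81-fold above replicate 2, both double-negative libraries were low, and no populations overlapped. *Runx2* was called at each step of the order, which ran from double-positive through Pdgfrα-only and GFP-only to double-negative cells. The mean of the double-positive cells was 5.43-fold that of the next population, the Pdgfrα-only cells. Pdgfrα-only cells had 2.37-fold more than GFP-only cells (log2 difference 1.22, standard error 0.24, adjusted p = 0.00219, limma). GFP-only cells in turn had 3.28-fold more than double-negative cells (log2 difference 1.61, standard error 0.24, adjusted p = 0.000105, limma). From the highest to the lowest population the ratio of means was 42.2 (log2 difference 5.19, adjusted p = 3.63e-09, limma).

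The *Runx2* interaction was 0.75 on the log2 scale (95% interval 0.02 to 1.48) and was not called (adjusted p = 0.0880, limma). It was called after quantile normalization (1.166, adjusted p = 0.0152), with median centring (1.18, adjusted p = 0.00911) and without double-positive replicate 2 (1.18, adjusted p = 0.00568), all in limma. Across its alternatives in limma or edgeR the adjusted p lay between 0.00568 and 0.391. The other identifier of *Runx2* (ENSMUSG00000092206), whose exons overlap those of the main identifier, held 2.51% of the summed value of both in double-positive cells, 2.44% in Pdgfrα-only cells, 4.37% in GFP-only cells and 5.01% in double-negative cells. Of these identifiers, the reads were thus assigned mostly to the one used here. Exons of *Gm10497* overlap *Runx2* on the opposite strand, and the strandedness of the libraries is not stated, so reads of the overlap could be assigned to either gene.

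*Sp7* (ENSMUSG00000060284; chromosome 15, 102187040 to 102197285, minus strand) had normalized values of 222 and 140.1 in double-positive cells and 17.5 and 12.6 in Pdgfrα-only cells. It was 11.8 and 16.3 in GFP-only cells and 2.15 and 5.07 in double-negative cells. Both double-positive libraries stood far above the rest, the single-positive populations overlapped, and the double-negative libraries lay below all others. *Sp7* was 12-fold higher in double-positive than in Pdgfrα-only cells (log2 difference 3.48, standard error 0.35, adjusted p = 0.000181, limma). Relative to GFP-only cells it was 12.9-fold higher (log2 difference 3.58, standard error 0.35, adjusted p = 1.88e-05, limma). The Pdgfrα-only and GFP-only cells did not differ beyond their spread (log2 difference 0.09, 95% interval -0.67 to 0.86, adjusted p = 0.879, limma), where *Runx2* did. Each of these populations was called above the double-negative cells, by log2 differences of 1.86 and 1.77 (adjusted p = 0.00058 and 0.00101, limma), of which that of the GFP-only cells was 1.167 after quantile normalization and still called (adjusted p = 0.0109, limma; alternatives 0.000216 to 0.0204).

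The GFP+ over GFP- difference of *Sp7* was larger among Pdgfrα+ cells, at 3.48, than among Pdgfrα- cells, at 1.77. The difference between these, 1.72 (95% interval 0.64 to 2.80), was called in limma (adjusted p = 0.0140). Neither a pseudocount of 0.1 (1.53, adjusted p = 0.0535, limma) nor voom on recovered reads (1.54, adjusted p = 0.116, limma) kept the call. It was also lost without double-positive replicate 1 (1.39, adjusted p = 0.0786), without Pdgfrα-only replicate 2 (1.5, adjusted p = 0.0657) and without GFP-only replicate 1 (1.5, adjusted p = 0.0693), all in limma. Across its alternatives in limma or edgeR the adjusted p ran from 0.00142 to 0.116.

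Per kilobase of all annotated exons, the ratio of *Runx2* to *Sp7* was 0.773 and 0.676 in double-positive cells, 1.44 and 1.88 in Pdgfrα-only cells, 0.905 and 0.615 in GFP-only cells and 1.45 and 0.633 in double-negative cells. Per kilobase of the longest transcript it was 1.01 and 0.883, 1.89 and 2.46, 1.18 and 0.804, and 1.89 and 0.826 in the same order. By either length, *Runx2* was thus above *Sp7* in both Pdgfrα-only libraries, whereas in double-positive replicate 1 and GFP-only replicate 1 the order of the genes depended on the length used. The ratios are a description and were not tested.

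*Dlx3* (ENSMUSG00000001510; chromosome 11, 94981403 to 94986610, plus strand) had normalized values of 59.5 and 43.6 in double-positive cells, 3.66 and 5.49 in Pdgfrα-only cells, 5.46 and 6.05 in GFP-only cells and 1.58 and 0.825 in double-negative cells. Both double-positive libraries were high, the single-positive populations overlapped, and both double-negative libraries were low, replicate 2 at the floor. The pairwise differences called for *Dlx3* were the same as those called for *Sp7*. *Dlx3* was 11.3-fold higher in double-positive than in Pdgfrα-only cells (log2 difference 3.24, standard error 0.37, adjusted p = 0.000342, limma). It was 8.96-fold higher than in GFP-only cells (log2 difference 2.94, standard error 0.37, adjusted p = 0.00012, limma). Pdgfrα-only and GFP-only cells did not differ beyond their spread (log2 difference -0.30, adjusted p = 0.606, limma).

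The lower steps of *Dlx3* were less firm. The log2 difference of GFP-only over double-negative cells, 1.64 (adjusted p = 0.00232, limma), fell to 0.93 after quantile normalization (adjusted p = 0.0524 in limma, over a range of 0.00138 to 0.0524). That of Pdgfrα-only over double-negative cells, 1.34 (adjusted p = 0.00713, limma), fell to 0.67 after quantile normalization (adjusted p = 0.142), to 0.89 with median centring (adjusted p = 0.0544) and to 1.1 without Pdgfrα-only replicate 2 (adjusted p = 0.0624), over a range of 0.00486 to 0.142. The interaction of *Dlx3* was 1.60 (95% interval 0.47 to 2.73, adjusted p = 0.0245, limma), in the direction of a larger GFP difference among Pdgfrα+ cells. It was not called with a pseudocount of 0.1 (1.25, adjusted p = 0.152), with voom (1.171, adjusted p = 0.282) or with edgeR (1.21, adjusted p = 0.193). Among the libraries, the call was lost without double-positive replicate 1 (1.38), Pdgfrα-only replicate 1 (1.36), GFP-only replicate 1 (1.54) or 2 (1.66), or double-negative replicate 1 (1.35). Quantile normalization moved it up to 2.42 (adjusted p = 0.00315). The adjusted p-values of the interaction ranged from 0.00315 to 0.282.

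*Dlx5* (ENSMUSG00000029755; chromosome 6, 6827805 to 6832085, minus strand) had normalized values of 41.8 and 25.2 in double-positive cells, 15.0 and 9.65 in Pdgfrα-only cells, 4.01 and 3.22 in GFP-only cells and 1.58 and 1.77 in double-negative cells. The populations did not overlap and fell in the order seen for *Runx2*, with both Pdgfrα+ populations above both Pdgfrα- populations. The mean in double-positive cells was 2.72-fold that in Pdgfrα-only cells, a log2 difference of 1.36 (95% interval 0.54 to 2.17) that was not called (adjusted p = 0.0594, limma). With the replicate block it was called at the same difference of 1.36 (adjusted p = 0.0477, limma), as it was with voom (1.41, adjusted p = 0.0177) and with edgeR (1.45, adjusted p = 0.0265) on recovered reads, over a range of 0.0177 to 0.341. Over GFP-only cells the double-positive cells were 9.28-fold higher (log2 difference 2.87, adjusted p = 0.00017, limma).

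*Dlx5* was also higher in Pdgfrα-only than in GFP-only cells, by 3.41-fold (log2 difference 1.51, adjusted p = 0.00977, limma). This call was lost without Pdgfrα-only replicate 1 (1.21, adjusted p = 0.101) and without GFP-only replicate 2 (1.38, adjusted p = 0.0708), over a range of 0.00478 to 0.101 in limma or edgeR. Over double-negative cells, Pdgfrα-only cells were 7.36-fold higher (log2 difference 2.29, adjusted p = 0.000194, limma), while the step from GFP-only cells was not called (log2 difference 0.78, adjusted p = 0.0983, limma). That step was 0.066 after quantile normalization (adjusted p = 0.899) and 0.33 with median centring (adjusted p = 0.483), over a range of 0.0615 to 0.899. The interaction of *Dlx5* was not called (0.58, 95% interval -0.58 to 1.73, adjusted p = 0.407, limma). It was 1.35 after quantile normalization (adjusted p = 0.0591) and 1.00 with median centring (adjusted p = 0.138), still not called, over a range of 0.0591 to 0.795.

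Per kilobase of exons, the ratio of *Dlx5* to *Dlx3* was 7.60 and 3.26 in Pdgfrα-only cells and 1.85 and 3.97 in double-negative cells, where *Dlx3* was near the floor. It was 1.30 and 1.07 in double-positive cells and 1.36 and 0.986 in GFP-only cells. The ratio was thus higher in all 4 GFP- libraries than in the 4 GFP+ libraries, and the GFP- populations overlapped, a description that was not tested. *Dlx4*, which lies 15159 bases from *Dlx3*, had 11 and 7 reads in double-positive cells and 1 read in the other 6 libraries together, so the paralog next to *Dlx3* was read in the same population.

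*Dlx6* (ENSMUSG00000029754; chromosome 6, 6813334 to 6818568, plus strand) lies 9236 bases from *Dlx5* and was read rarely. It had 15 and 27 reads in double-positive cells, 0 and 3 in Pdgfrα-only cells, 5 and 1 in GFP-only cells and 0 and 2 in double-negative cells. Both double-positive libraries were above the floor, at normalized values of 4.28 and 7.91, and the other populations overlapped at or near it. The ratio of reads, scaled by effective library size, was 14.5 over Pdgfrα-only cells (95% counting interval 4.62 to 72.9), 7.89 over GFP-only cells (3.34 to 22.7) and 22.8 over double-negative cells (5.94 to 195). *Dlx6* was called higher in double-positive cells than in each of these populations, with log2 differences of 2.18, 1.93 and 2.35 (adjusted p = 0.0170, 0.00948 and 0.000846, limma). The long noncoding gene *Dlx6os1*, which spans *Dlx6* on the opposite strand without sharing exons, had normalized values of 3.45 and 1.29 in double-positive cells, 4.41 and 0.15 in Pdgfrα-only cells, 0.36 and 0.39 in GFP-only cells and 0.14 and 0.59 in double-negative cells. Its Pdgfrα+ populations overlapped, unlike those of *Dlx6*.

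Calls for so few reads depended on the method and on single libraries. Over Pdgfrα-only cells, the *Dlx6* call was lost with only the compared populations in the fit (2.18, adjusted p = 0.0524), with a pseudocount of 0.1 (3.54, adjusted p = 0.0816) and with edgeR (3.73, adjusted p = 0.0954). It was also lost without double-positive replicate 2 (1.80, adjusted p = 0.0995), Pdgfrα-only replicate 1 (1.75, adjusted p = 0.167) or Pdgfrα-only replicate 2 (2.61, adjusted p = 0.0503), over a range of 0.0157 to 0.167. Over GFP-only cells it did not hold at a pseudocount of 0.1 (2.83, adjusted p = 0.0646), with edgeR (2.96, adjusted p = 0.0662) and without double-positive replicate 2 (1.55, adjusted p = 0.0675) or GFP-only replicate 2 (1.55, adjusted p = 0.0983), over a range of 0.00906 to 0.0983. With voom the call was kept against both populations, at larger log2 differences of 4.06 (adjusted p = 0.0349) and 3.00 (adjusted p = 0.0250). The difference of *Dlx6* from double-negative cells was called under each of its 13 alternatives, and on the log2 scale it was 3.85 with a pseudocount of 0.1, 4.26 with voom and 4.33 with edgeR. The interaction of *Dlx6*, 1.76 (95% interval 0.34 to 3.18, adjusted p = 0.0448, limma), was lost without a mean-variance trend (adjusted p = 0.0506), with a pseudocount of 0.1 (2.52, adjusted p = 0.169), with voom (2.80, adjusted p = 0.205) and with edgeR (2.36, adjusted p = 0.419). It was also lost without double-positive replicate 2 (1.38), Pdgfrα-only replicate 1 (1.33), GFP-only replicate 2 (1.39) and double-negative replicate 1 (2.00) or 2 (1.52), and its adjusted p lay between 0.0154 and 0.419 across the alternatives.

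*Msx1* (ENSMUSG00000048450; chromosome 5, 38211724 to 38215822, minus strand) was near the floor in every population. It had 6 and 2 reads in double-positive cells, 6 and 2 in Pdgfrα-only cells, 7 and 0 in GFP-only cells and 0 and 1 in double-negative cells. The first 3 populations overlapped, with the higher value in replicate 1 of each, and a difference between them was not detectable at this depth. The ratio of reads over double-negative cells was 8.70 in double-positive cells (95% counting interval 1.167 to 386), 8.42 in Pdgfrα-only cells (1.13 to 374) and 6.75 in GFP-only cells (0.867 to 304). *Msx1* was called in none of the 7 comparisons in the main limma fit, where its smallest adjusted p was 0.162 and its smallest unadjusted p 0.114. It was also called under none of its alternatives in limma, voom or edgeR. Their smallest adjusted p was 0.0680, for Pdgfrα-only over double-negative cells with only these populations in the fit (limma).

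*Mef2c* (ENSMUSG00000005583; chromosome 13, 83643033 to 83806684, plus strand) had normalized values of 326 and 242 in double-positive cells and 37.4 and 37.3 in Pdgfrα-only cells. It was 73.0 and 67.5 in GFP-only cells and 12.2 and 18.7 in double-negative cells. The populations did not overlap, and the order of the single-positive ones was opposite to that of *Runx2* and *Dlx5*. Double-positive cells had 7.61-fold more *Mef2c* than Pdgfrα-only cells (log2 difference 2.88, standard error 0.21, adjusted p = 1.97e-05, limma). They had 4.05-fold more than GFP-only cells (log2 difference 1.99, standard error 0.21, adjusted p = 3.77e-05, limma). GFP-only cells had 4.54-fold more than double-negative cells (log2 difference 2.14, standard error 0.21, adjusted p = 4.03e-06, limma). Both GFP+ populations were thus above both GFP- populations. Pdgfrα-only cells had 2.41-fold more than double-negative cells (log2 difference 1.25, adjusted p = 0.000277, limma), which median centring reduced to 0.80 (adjusted p = 0.00399, limma; alternatives 5.4e-05 to 0.00571).

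The log2 difference of *Mef2c* between Pdgfrα-only and GFP-only cells was -0.89 (standard error 0.21, adjusted p = 0.00789, limma). The call was lost without Pdgfrα-only replicate 1 (-0.90, adjusted p = 0.0520), Pdgfrα-only replicate 2 (-0.89, adjusted p = 0.0550) or GFP-only replicate 1 (-0.84, adjusted p = 0.0748), over a range of 0.00167 to 0.0748 in limma or edgeR. The GFP-only cells are also those with the highest skeletal muscle and pericyte marker sums, and *Mef2c* is expressed in muscle. The part of muscle cells in the *Mef2c* value of GFP-only cells was not tested.

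Per kilobase of exons, the ratio of *Mef2c* to *Runx2* was 2.82 and 2.76 in GFP-only cells, against 0.609 and 0.645 in Pdgfrα-only cells. It was 0.781 and 1.05 in double-positive cells and 1.61 and 2.40 in double-negative cells. *Mef2c* thus exceeded *Runx2* in all 4 Pdgfrα- libraries, also by the longest transcript (ratios 1.35 to 2.36), a description that was not tested. Its interaction was not called (0.74, 95% interval 0.08 to 1.40, adjusted p = 0.0656, limma). It was called after quantile normalization (0.95, adjusted p = 0.0185), with median centring (1.16, adjusted p = 0.0048), with edgeR (0.83, adjusted p = 0.0406) and without double-positive replicate 2 (0.95, adjusted p = 0.0411) or double-negative replicate 1 (1.03, adjusted p = 0.00828), over a range of 0.0048 to 0.236.

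*Atf4* (ENSMUSG00000042406; chromosome 15, 80085614 to 80087970, plus strand) had normalized values of 161 and 169.8 in double-positive cells, 170.1 and 124 in Pdgfrα-only cells, 160.1 and 199.8 in GFP-only cells and 216 and 228 in double-negative cells. It was the only measured member whose highest values were in both double-negative libraries, and the other 3 populations overlapped. No pair of those was called, and the difference between the Pdgfrα+ populations was 0.19 on the log2 scale (95% interval -0.18 to 0.55, adjusted p = 0.617, limma). *Atf4* was lower in Pdgfrα-only than in double-negative cells (log2 difference -0.61, adjusted p = 0.00702, limma). This call was lost without a mean-variance trend (adjusted p = 0.0572) and without Pdgfrα-only replicate 2 (-0.38, adjusted p = 0.101), and median centring made the difference larger (-1.06, adjusted p = 6.91e-05), these being the ends of its range. In double-positive over double-negative cells the log2 difference was -0.43 (adjusted p = 0.0435, limma).

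The call of *Atf4* in double-positive cells was lost without a mean-variance trend (adjusted p = 0.159), after quantile normalization (-0.26, adjusted p = 0.194) and without any single library of the compared populations. The values were -0.39 without double-positive replicate 1 (adjusted p = 0.150), -0.46 without double-positive replicate 2 (adjusted p = 0.0921), -0.46 without double-negative replicate 1 (adjusted p = 0.0697) and -0.39 without double-negative replicate 2 (adjusted p = 0.125), over a range of 0.000277 to 0.194 in limma or edgeR. With median centring it was -0.91. For GFP-only over double-negative cells, -0.31 was not called (adjusted p = 0.137, limma) but -0.76 was with median centring (adjusted p = 0.00117, limma; range 0.00117 to 0.801). The *Atf4* interaction, 0.50, was not called (adjusted p = 0.108, limma). With median centring it was 0.92 (adjusted p = 0.00485) and without Pdgfrα-only replicate 1 it was 0.72 (adjusted p = 0.0334), both called, over a range of 0.00485 to 0.398.

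**Figure D3:**
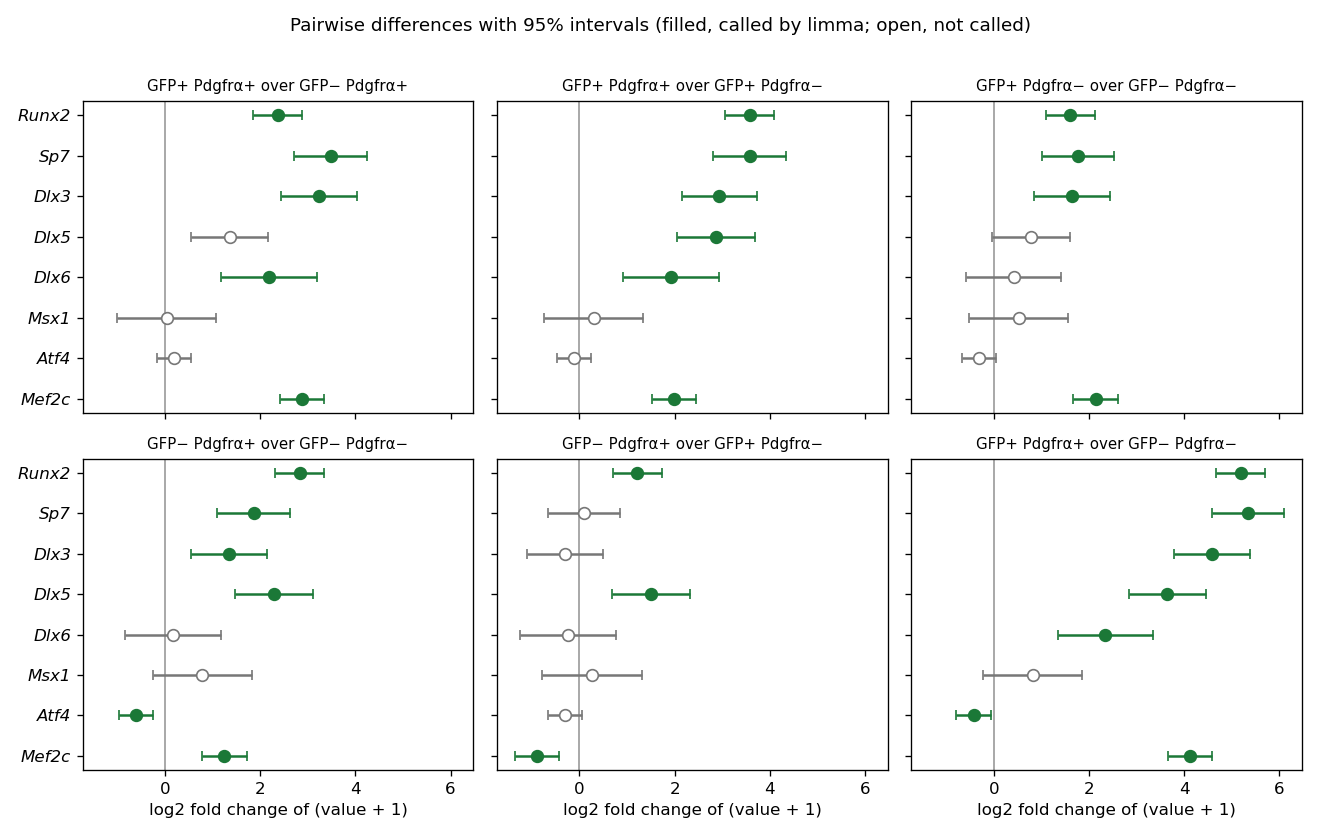
Log2 difference, on the scale log2(value + 1), of the 8 measured genes in the 6 pairwise comparisons of populations; points are the limma estimates from 8 libraries, bars their 95% intervals, and filled points were called at an adjusted p of at most 0.05. *Runx2*, *Sp7*, *Dlx3*, *Dlx6* and *Mef2c* are filled on the side of the GFP+ Pdgfrα+ cells in all 3 of their comparisons, with log2 differences of 1.93 to 5.34.

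In double-positive cells, the levels per kilobase of exons ran from *Atf4* (95.8) through *Sp7* (59.6), *Runx2* (43.8), *Mef2c* (38.4), *Dlx5* (23.5), *Dlx3* (19.5) and *Dlx6* (2.57) to *Msx1* (0.650). By the longest transcript *Sp7* was 62.4 and *Runx2* 59.9. *Atf4* thus had the highest level per kilobase although it did not distinguish this population. Per kilobase, *Atf4* was 85.2 in Pdgfrα-only cells, 104 in GFP-only cells and 129 in double-negative cells.

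Genes known as targets of Runx2, Sp7 and Dlx factors in bone matrix and signalling were mostly called higher in double-positive cells. Of 14 such genes, 13 were called higher in double-positive than in Pdgfrα-only cells, 13 than in GFP-only cells and 13 than in double-negative cells, where 1 was called lower, with median log2 differences of 3.67, 3.15 and 4.99. Of all genes, 3.22%, 13.1% and 32.9% were called higher in these comparisons, and 26.4% lower in the last. Of these targets, 9 are also in the list of osteoblast and osteocyte markers. *Ibsp*, which encodes bone sialoprotein, had mean normalized values of 2119.6 in double-positive cells, 49.9 in Pdgfrα-only cells, 143 in GFP-only cells and 10.8 in double-negative cells. *Spp1*, which encodes osteopontin, had 4982, 231, 443 and 81.5 in the same order. *Col1a1* had 44748, 16096, 2831 and 498. The single-positive populations thus differed by gene, with *Col1a1* higher in Pdgfrα-only than in GFP-only cells (log2 difference 2.51), and *Ibsp* (-1.54, adjusted p = 0.0006, limma) and *Spp1* (-0.97, adjusted p = 0.00845, limma) lower. *Col1a1* shared this order with *Runx2* and *Dlx5*, and *Ibsp* and *Spp1* shared theirs with *Mef2c*. Of the 14 genes, 2 were called higher and 6 lower in Pdgfrα-only than in GFP-only cells (median -0.58), beside 14.3% and 13.5% of all genes. For the interaction 11 were called above 0 and 2 below (median 1.84), beside 19.1% and 25.2%.

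Coactivators and relatives of Runx2 were called higher in double-positive cells most often against double-negative cells. Of 9 genes, 2 were called higher in double-positive than in Pdgfrα-only cells, beside 3.22% of all genes. The median log2 difference there was 0.00, and -0.03 with median centring. Over GFP-only cells 4 were called higher, beside 13.1% of all genes (median 0.56), and over double-negative cells 7, beside 32.9% (median 3.26). *Cbfb*, the partner subunit that Runx2 needs to bind DNA stably, was 125 ± 7.61 (SD, n = 2) in double-positive cells, 89.9 ± 4.99 in Pdgfrα-only cells, 76.2 ± 4.17 in GFP-only cells and 25.2 ± 5.15 in double-negative cells. *Cbfb* was not called between the Pdgfrα+ populations (log2 difference 0.47, adjusted p = 0.151, limma). The coactivator gene *Wwtr1* (Taz) was 152, 188, 162 and 9.79 in the same order of populations.

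Of 14 genes listed as repressors of Runx2, 2 were called lower in double-positive than in Pdgfrα-only cells, beside 2.13% of all genes, and the median log2 difference was -0.60. The place of *Lmna* in this list is doubtful, since lamin A/C is also known to support Runx2 and osteoblast differentiation. *Zfp521* was 152 ± 25.2 (SD, n = 2) in double-positive cells and 299 ± 4.83 in Pdgfrα-only cells (log2 difference -0.98, adjusted p = 0.00329, limma), and *Lmna* was 95.2 and 193 (-1.02, adjusted p = 0.0039, limma). *Trps1* was 218 and 324 and was not called (-0.57, adjusted p = 0.0559, limma). Over GFP-only cells 3 of the list were called higher and 2 lower (median 0.13), beside 13.1% and 11.1% of all genes. Over double-negative cells 11 were called higher and 1 lower (median 1.44, and 0.96 with median centring), beside 32.9% and 26.4%. For the interaction, 8 of the 14 were called below 0 (median -1.89), beside 25.2% of all genes. The interaction was also called below 0 for 6 of the 9 Runx coactivators and relatives (median -1.85) and for 6 of the 10 measured homeobox genes (median -1.79).

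Other homeobox genes of the limb and skeleton were mostly not called between the Pdgfrα+ populations. Of 14 listed genes 10 were measured. Between the Pdgfrα+ populations 1 was called higher and 1 lower (median log2 difference -0.50), beside 3.22% and 2.13% of all genes. In double-positive over GFP-only cells 5 were called higher (median 1.23), beside 13.1%. In Pdgfrα-only over double-negative cells 9 were called higher (median 2.99), beside 32.9%. *Prrx1*, a factor of limb mesenchyme, was 392 ± 49.5 (SD, n = 2) in double-positive cells, 486 ± 38.8 in Pdgfrα-only cells, 149.7 ± 3.12 in GFP-only cells and 11.9 ± 2.75 in double-negative cells. *Shox2* was 38.4, 37.4, 4.98 and 1.22 in the same order. Both genes thus had higher means in both Pdgfrα+ populations than in either Pdgfrα- population.

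Of 12 Sp and Krüppel-like genes, relatives of Sp7, 10 were measured. Of these, 1 was called higher in double-positive than in Pdgfrα-only cells (median log2 difference 0.11), beside 3.22% of all genes. Over GFP-only cells 2 were called higher and 1 lower (median 0.09), beside 13.1% and 11.1%. Over double-negative cells 6 were called higher and 2 lower (median 1.26), beside 32.9% and 26.4%. With median centring 5 were higher and 4 lower there (median 0.78). The general activator *Sp1* was 325, 342, 329 and 336 in double-positive, Pdgfrα-only, GFP-only and double-negative cells and was not called in any comparison in limma. Across the same populations *Sp7* had means of 181, 15.1, 14.1 and 3.61.

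A list of 9 genes held other Mef2 genes, the class IIa deacetylases that bind Mef2 factors, *Srf* and *Myocd*. Of these, 8 were measured, and their median log2 difference between the Pdgfrα+ populations was -0.09. Over GFP-only cells 1 was called higher and 2 lower (median 0.11), beside 13.1% and 11.1% of all genes. Over double-negative cells 5 were called higher (median 1.05), beside 32.9%. With median centring 3 were called higher and 1 lower over double-negative cells (median 0.57), and the median was 0.63 after quantile normalization. *Mef2d* was 198, 206, 202 and 165 in double-positive, Pdgfrα-only, GFP-only and double-negative cells, and *Mef2a* was 185, 166, 139 and 69.4. The Mef2 cofactor gene of smooth and cardiac muscle, *Myocd*, was called lower in double-positive than in GFP-only cells (log2 difference -1.75).

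Targets of Atf4 in amino acid supply were highest in the population with the highest *Atf4* values. The values of 21 such genes summed to 802 and 684 in double-positive cells, 610.3 and 590.3 in Pdgfrα-only cells, 568 and 549 in GFP-only cells and 2132 and 2126 in double-negative cells. Of these, 17 were called lower and 1 higher in double-positive than in double-negative cells (median log2 difference -1.22), 18 lower and 1 higher in Pdgfrα-only cells (median -1.38) and 17 lower in GFP-only cells (median -1.72). Of all genes, 26.4%, 26.8% and 23.6% were called lower in these comparisons, and 32.9%, 32.9% and 30.1% higher. The tRNA synthetase gene *Nars* was 73.5, 72.4, 73.3 and 194 in double-positive, Pdgfrα-only, GFP-only and double-negative cells, and *Shmt2*, of mitochondrial serine metabolism, was 46.8, 44.2, 42.0 and 254. The summed erythroid markers were also highest in double-negative cells, at 13762 and 21839, and their part in these values was not tested. Between the Pdgfrα+ populations 2 targets were called higher in GFP+ cells, beside 3.22% of all genes. Among them was *Psat1*, of serine synthesis (61.2 against 18, log2 difference 1.71, adjusted p = 0.000126, limma). The interaction was called above 0 for 16 of the 21 (median 2.17), beside 19.1% of all genes.

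Partners, kinases and bZIP relatives of Atf4 had no common direction. Of 16 genes, 2 were called higher in double-positive than in Pdgfrα-only cells (median log2 difference -0.04), beside 3.22% of all genes. Over GFP-only cells 4 were called higher and 2 lower (median 0.09, and -0.01 after quantile normalization), beside 13.1% and 11.1%. Over double-negative cells 7 were called higher and 6 lower (median 0.40, and -0.08 with median centring), beside 32.9% and 26.4%. *Creb3l1*, which encodes the bZIP factor Oasis of osteoblast secretion, was 432 ± 80.8 (SD, n = 2) in double-positive cells, 127 ± 4.88 in Pdgfrα-only cells, 33.0 ± 1.53 in GFP-only cells and 4.78 ± 2.08 in double-negative cells. *Eif2ak1*, the heme-regulated kinase upstream of Atf4 translation, was 39.9, 43.9, 57.0 and 269 in the same order. *Creb3l1* thus fell in the order of *Runx2* and *Eif2ak1* was highest where *Atf4* was.

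Of 7 AP-1 genes, 3 were called higher in double-positive than in Pdgfrα-only cells (median log2 difference 0.17), beside 3.22% of all genes. They were *Fosb* (309 against 57.4, log2 difference 2.39, adjusted p = 0.000213, limma), *Junb* (1.46, adjusted p = 0.00274, limma) and *Fos* (200.03 against 88.5, 1.173, adjusted p = 0.00335, limma). Over GFP-only cells 1 was called higher and 2 lower (median -0.40), beside 13.1% and 11.1%, and *Jun* was 129 against 493. Of 6 nuclear factors of the Wnt pathway, 2 were called higher in double-positive than in Pdgfrα-only cells (median 0.20), beside 3.22% of all genes. Over GFP-only cells 5 were called higher (median 0.89), beside 13.1%. *Tcf7* was 70.5 ± 27.5 (SD, n = 2) in double-positive cells, 6.03 ± 0.504 in Pdgfrα-only cells and 10.8 ± 1.68 in GFP-only cells (log2 differences 3.29 and 2.55), and at 0.484 it was below the floor in double-negative cells. *Ctnnb1*, which encodes β-catenin, was 692, 373, 414 and 217 in double-positive, Pdgfrα-only, GFP-only and double-negative cells. Of 7 BMP response genes, 2 were called higher (*Smad7*, 1.61, and *Smad6*, 1.98) and 1 lower (*Id1*, -2.62) in double-positive than in GFP-only cells (median 0.08), beside 13.1% and 11.1% of all genes. Their median between the Pdgfrα+ populations was 0.30.

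For each member, the genes with the most similar profile were found by Pearson's r of log2(value + 1) over the 8 libraries among 12378 genes. The libraries fall into 4 populations, so r mostly reflects the order of the population means and is given as a description. *Runx2* was closest to *Unc5c* (r = 0.995), *Sgms2* (0.991) and *Timp1* (0.990). *Sp7* was closest to the other *Runx2* identifier (0.990), *Chsy1* (0.988) and *Unc5b* (0.983), and *Dlx3* to *Alpl* (0.985) and *Notum* (0.985). *Dlx5* was closest to *Bmp3* (0.992), *Surf4* (0.992) and *Timp1* (0.992), thus sharing *Timp1* with *Runx2*. *Mef2c* was closest to the bone genes *Ibsp* (0.996) and *Ifitm5* (0.993) and to *Tcf7* (0.992). *Dlx6* was closest to *Alg1* (0.976), *Enpp6* (0.969) and *Galnt3* (0.943). The profiles nearest to *Msx1* were those of *Lrrc61* (0.984), *Ppib* (0.966) and *A730011C13Rik* (0.950), and those nearest to *Atf4* were *ORF61* (0.981), *Gm13092* (0.970) and *Mrpl1* (0.964). *Alpl*, *Ibsp* and *Ifitm5*, known in mineralizing cells, were thus among the nearest profiles of *Dlx3* and *Mef2c*.

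Promoter sequences were taken from RefSeq on build GRCm38.p6, as 300 bases from 250 before to 50 after a transcription start. Windows were present for 5 of the 9 genes, *Runx2*, *Mef2c*, *Atf4*, *Msx1* and *Msx2*, and not for *Sp7*, *Dlx3*, *Dlx5* and *Dlx6*. They were searched on both strands for the Runx core TGTGGT (reverse ACCACA), which is held by 16.8% of 32851 windows of all genes, and for the homeodomain core TAATTG (reverse CAATTA), which is held by 8.0%. The *Runx2* window (chr17:44814578-44814877, minus strand) is shown because it holds the core of its own factor 3 times, as 60 windows (0.183%) do at least. The *Mef2c* window (chr13:83503784-83504083, plus strand) is shown because it holds the homeodomain core of the Dlx factors on both strands, in copies that overlap each other. Capitals mark the matches, which are a description and not binding sites. The other *Mef2c* windows and those of *Atf4*, *Msx1* and *Msx2* held no match to either.
Runx2: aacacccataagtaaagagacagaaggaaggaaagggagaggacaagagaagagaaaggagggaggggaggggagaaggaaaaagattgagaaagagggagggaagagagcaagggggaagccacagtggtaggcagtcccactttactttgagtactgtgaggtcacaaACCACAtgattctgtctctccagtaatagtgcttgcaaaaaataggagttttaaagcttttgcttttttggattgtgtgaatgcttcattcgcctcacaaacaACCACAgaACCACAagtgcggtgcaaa
Mef2c: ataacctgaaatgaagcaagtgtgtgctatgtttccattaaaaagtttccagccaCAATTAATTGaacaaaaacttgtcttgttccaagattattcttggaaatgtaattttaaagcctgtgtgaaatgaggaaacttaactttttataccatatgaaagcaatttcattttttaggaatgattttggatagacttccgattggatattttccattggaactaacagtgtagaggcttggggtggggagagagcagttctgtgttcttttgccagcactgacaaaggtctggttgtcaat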

How the data were processed

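RNA-seq libraries of 4 sorted populations, 2 each, were analysed from the deposited normalized signal. The authors trimmed adaptors with cutadapt, mapped reads to the transcriptome of NCBIM37, quantified them with RSEM 1.17 and normalized them with voom of limma. The deposited signal is linear, and dividing by the step of 1 read gave whole reads for 100% of the values (tolerance 0.01). Gene names came from GENCODE M1 (15849 of 15880 identifiers matched).

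The test was limma 3.58.1 in R 4.3.3 on log2(value + 1), with 1 coefficient per population, a mean-variance trend, 4 residual degrees of freedom and Benjamini–Hochberg adjustment over all genes. Alternatives were a fit restricted to the populations compared, a term for the replicate block (*Dlx5*, double-positive over Pdgfrα-only cells, adjusted p = 0.0477), no trend, a pseudocount of 0.1, a filter (over 2 in at least 2 libraries, 14333 genes), quantile normalization, median centring, voom and edgeR 4.0.16 on recovered reads, and leaving out each library. Reads per library ranged from 3221217 to 5302762, and within populations the libraries varied beyond counting error (chi-square divided by its degrees of freedom, 4.12 to 9.12).

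Since the study pooled littermates for each set of samples, libraries with the same replicate number were taken to share a pool. Deviations of same-numbered libraries were correlated at 0.004 to 0.081.

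The members and lists were chosen with earlier results of these data known. Named genes are all members, the 4 genes with the highest mean of a list, called genes of lists with fewer than 9 measured genes, the 3 genes most like each member, and paralogs or antisense genes beside a member. The results of some genes that this rule takes are not given here. *Myf6*, *Foxd3*, *Bglap*, *Bglap2*, *Sost* and *mt-Rnr2* are named as marker or quality values. Python 3.11.15 with pandas 2.3.3, numpy 2.4.6, matplotlib 3.10.9 and scipy 1.17.1 gave the tables and plots. *Msx2* was not analysed here, because no identifier in the table carries its symbol.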

Additional observations from a re-analysis of the deposited data

Results flagged for a closer look

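For *Sp7*, *Dlx3* and *Dlx6*, the GFP+ over GFP- difference was larger among Pdgfrα+ than among Pdgfrα- cells, and the test of that difference itself passed the threshold. The interaction was 1.72 on the log2 scale for *Sp7* (adjusted p = 0.0140, limma), 1.60 for *Dlx3* (adjusted p = 0.0245, limma) and 1.76 for *Dlx6* (adjusted p = 0.0448, limma). Each of these calls was lost with a pseudocount of 0.1 and with voom on recovered reads, at adjusted p-values of 0.0535 and 0.116 for *Sp7*, 0.152 and 0.282 for *Dlx3* and 0.169 and 0.205 for *Dlx6*. Over the alternatives, the adjusted p-values in limma or edgeR ranged from 0.00142 to 0.116 for *Sp7*, from 0.00315 to 0.282 for *Dlx3* and from 0.0154 to 0.419 for *Dlx6*. All 3 interactions stayed above 0 under each alternative.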

How the results depend on the processing

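Of 745 alternative values for 56 member results, 662 kept their direction and side of the threshold, 14 passed it, 49 no longer passed it and 20 changed sign. None of the results that changed sign had been called. *Dlx6* turned in GFP-only over double-negative cells with quantile normalization (-0.021) and median centring (-0.038), and in Pdgfrα-only over double-negative cells with the same settings (-0.25 and -0.28). Leaving out a library gave log2 ranges that cross 0 in the following comparisons. Between the Pdgfrα+ populations these were -0.32 to 0.38 (*Msx1*) and -0.042 to 0.41 (*Atf4*). For double-positive over GFP-only cells they were -0.36 to 0.96 (*Msx1*) and -0.27 to 0.044 (*Atf4*), and for GFP-only over double-negative cells -0.14 to 1.18 (*Msx1*). For Pdgfrα-only over double-negative cells the range was -0.26 to 0.60 (*Dlx6*). For Pdgfrα-only over GFP-only cells the ranges were -0.13 to 0.32 (*Sp7*), -0.68 to 0.18 (*Dlx6*) and -0.40 to 0.93 (*Msx1*), and for the interaction -1.15 to 0.17 (*Msx1*). Genes called between the Pdgfrα+ populations fell from 849 to 532 without a trend and to 246 to 517 without a library. Without a library, 2158 to 3047 were called between the GFP+ populations (3848 with all) and 2757 to 3077 in Pdgfrα-only over GFP-only cells (4427 with all), where 1 to 2 members were called, against 3. Members called for the interaction numbered 0 with a pseudocount of 0.1, 5 with quantile normalization, 6 with median centring, 0 with voom and 1 to 4 without a library, against 3. The replicate block changed no member call but that of *Dlx5* between the Pdgfrα+ populations. *Msx1* has no value under the filter. A left-out library leaves a population with 1, assumed to vary like the others, and fewer residual degrees of freedom. The cause of the other changes was not tested. *Dlx6* and *Msx1* are limited by their few reads.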
